A study of Homo sapiens with 6 samples.

Results

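The NF-kappaB pathway was followed here through 35 genes for its subunits, inhibitors, kinases, adaptors and target genes, among them the kinase gene MAP3K8. The genes were taken from a list of symbols that was matched to the named probes of the array, and all 35 of the 35 were found there, among 17411 genes in all. INA-6 is an established human multiple myeloma cell line, grown from malignant plasma cells, which depends on interleukin 6 (IL-6) for growth. RNA was measured in 3 samples of INA-6 cells that had been without IL-6 for 13 h and were then restimulated with it for 1 h, and in 3 samples taken after the same 13 h of withdrawal with no restimulation. Both groups had thus been deprived of the cytokine, no sample with permanent IL-6 was part of the comparison, and the labels call the 3 samples of each group biological replicates. All values are of 1 cell line at 1 time point.

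NF-kappaB is a family of dimeric transcription factors made from RelA, RelB, c-Rel, p105/p50 and p100/p52. In resting cells IkappaB proteins hold the dimers in the cytoplasm, and the IkappaB kinase complex releases them by marking the inhibitors for degradation. In the non-canonical branch the kinase NIK, encoded by MAP3K14, drives processing of p100, and TRAF2, TRAF3 and the cIAP proteins keep NIK low. MAP3K8 encodes TPL2 (also COT), a kinase that p105 and ABIN-2 hold in a complex and that, once released by IkappaB kinase, activates MEK and through it ERK. Lesions that activate NF-kappaB are known from multiple myeloma. IL-6 itself acts mainly through JAK kinases and STAT3.

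The unit of all levels is the deposited log2 intensity of a spot. A gene was represented by its brightest probe that exceeded the spot median of the array in at least 3 of the 6 samples. This median was 6.84 to 6.85 on every array. Of the 35 genes, 30 passed and entered the test over 12703 genes, 26 of them with a probe above the median on all arrays and 4 on fewer. A difference is the mean of the 3 restimulated arrays minus the mean of the 3 withdrawn arrays, followed by its standard error from limma. A gene counted as called at an adjusted p under 0.05 (limma, Benjamini-Hochberg over all genes tested). With 3 arrays per group the precision is limited, so a gene that did not pass is not shown to be unchanged. An exact permutation test of 3 against 3 values cannot give a two-sided p below 0.1. The limma p-values are not bound by this floor, since they rest on a model of the spread over all genes tested. Correlations between arrays over the tested genes were 0.992 to 0.994 within the restimulated group, 0.986 to 0.993 within the withdrawn group and 0.987 to 0.992 across groups.

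MAP3K8 was higher after restimulation, and it was the 1 gene of the 35 that passed the test. Of the other 29 tested genes none passed in either direction. Over all genes tested, 0.236% were called higher and 0.00787% were called lower. Since the probe of MAP3K8 was above the median on the 3 restimulated arrays only, it passed the filter through the group in which it was high, and the count of 1 in 30 is given as a description. A weaker criterion is that the 3 values of a group lie wholly above or below the 3 of the other. It was met upwards by 9 of the 30 genes (30%), against 5.80% of all genes tested, and downwards by TRAF1 (3.33%), against 6.35% of all genes tested. Without MAP3K8 it was met upwards by 8 of 29 (27.6%). These 8 include BCL3 and NFKBIZ, each above the median on 3 restimulated arrays and 1 withdrawn array. They too passed the filter through the restimulated group, so leaving out MAP3K8 alone did not remove that effect. An unadjusted p under 0.05 was found for 7 of the 30 (23.3%), against 7.99% of all genes tested. The median difference of the 30 genes was 0.05 (0.05 also without MAP3K8), beside 0.01 for all genes tested, and 21 of them lay above zero (70%), beside 53.2% of all genes tested. These shares describe a list that was chosen with results of these data known, so no test of the list was made.

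**Figure D1:**
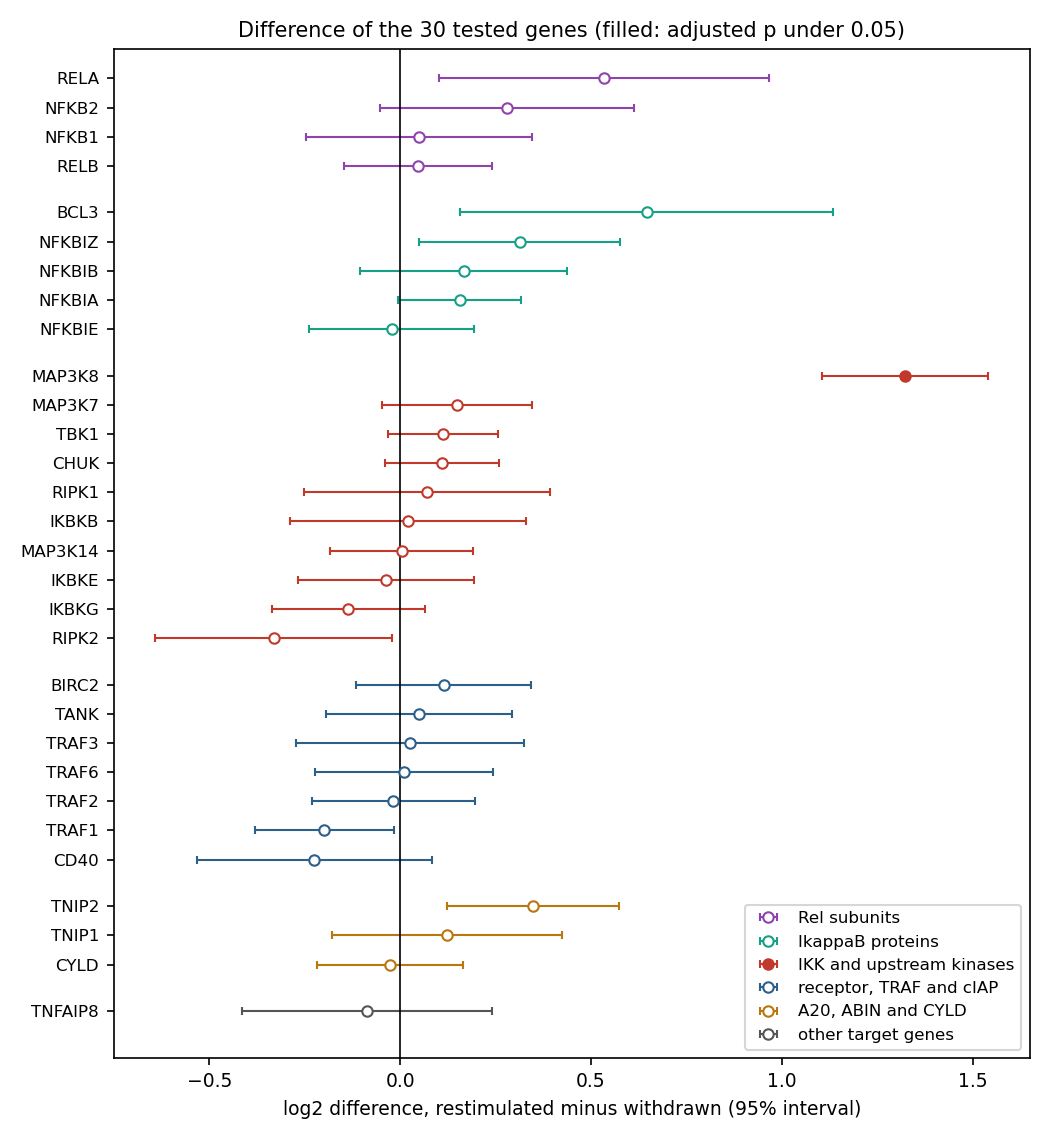
Differences (restimulated minus withdrawn, log2) of the 30 tested NF-kappaB genes, grouped by role, with 95% confidence intervals from limma; filled points mark an adjusted p under 0.05. MAP3K8 at 1.32 stands to the right of all others, which run from -0.33 for RIPK2 to 0.65 for BCL3.

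For most of the set the arrays bounded the difference closely. The 95% confidence interval lay within 1.5-fold in both directions for 25 of the 30 genes and within 2-fold for 28. The median standard error was 0.09, beside 0.11 for all genes tested. The bounds hold for the probe used and for relative levels, since the quantile normalization removes any shift of the whole distribution.

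MAP3K8 had log2 intensities of 8.13, 8.10 and 7.92 on the restimulated arrays, against 6.76, 6.62 and 6.80 on the withdrawn arrays. The lowest restimulated array thus lay well above the highest withdrawn array, and all 3 withdrawn arrays lay below the array median, where a level is only bounded. The means were 8.05 ± 0.11 after restimulation and 6.73 ± 0.10 after withdrawal (SD, n = 3 each). The difference of 1.32 ± 0.09 (SE, limma adjusted p = 0.00754) ranked 10 by p among all genes tested, and the fitted fold was 2.50 with a 95% confidence interval from 2.15 to 2.91. Set against the array median in place of the dim withdrawn value, the restimulated mean of MAP3K8 was 2.30-fold higher. This is a point value without sampling error and not a minimum, since the confidence interval of the fitted fold began at 2.15. The call was lost when any of 3 samples was left out: the adjusted p was 0.0630 without restimulated sample 1, 0.0651 without restimulated sample 2 and 0.0700 without withdrawn sample 1, with differences of 1.28, 1.30 and 1.34. It was 0.171 with the replicate number as a block, and under a filter above the median on all 6 arrays the gene was not tested. MAP3K8 has 1 probe on the array, so no other probe could be set beside it.

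**Figure D2:**
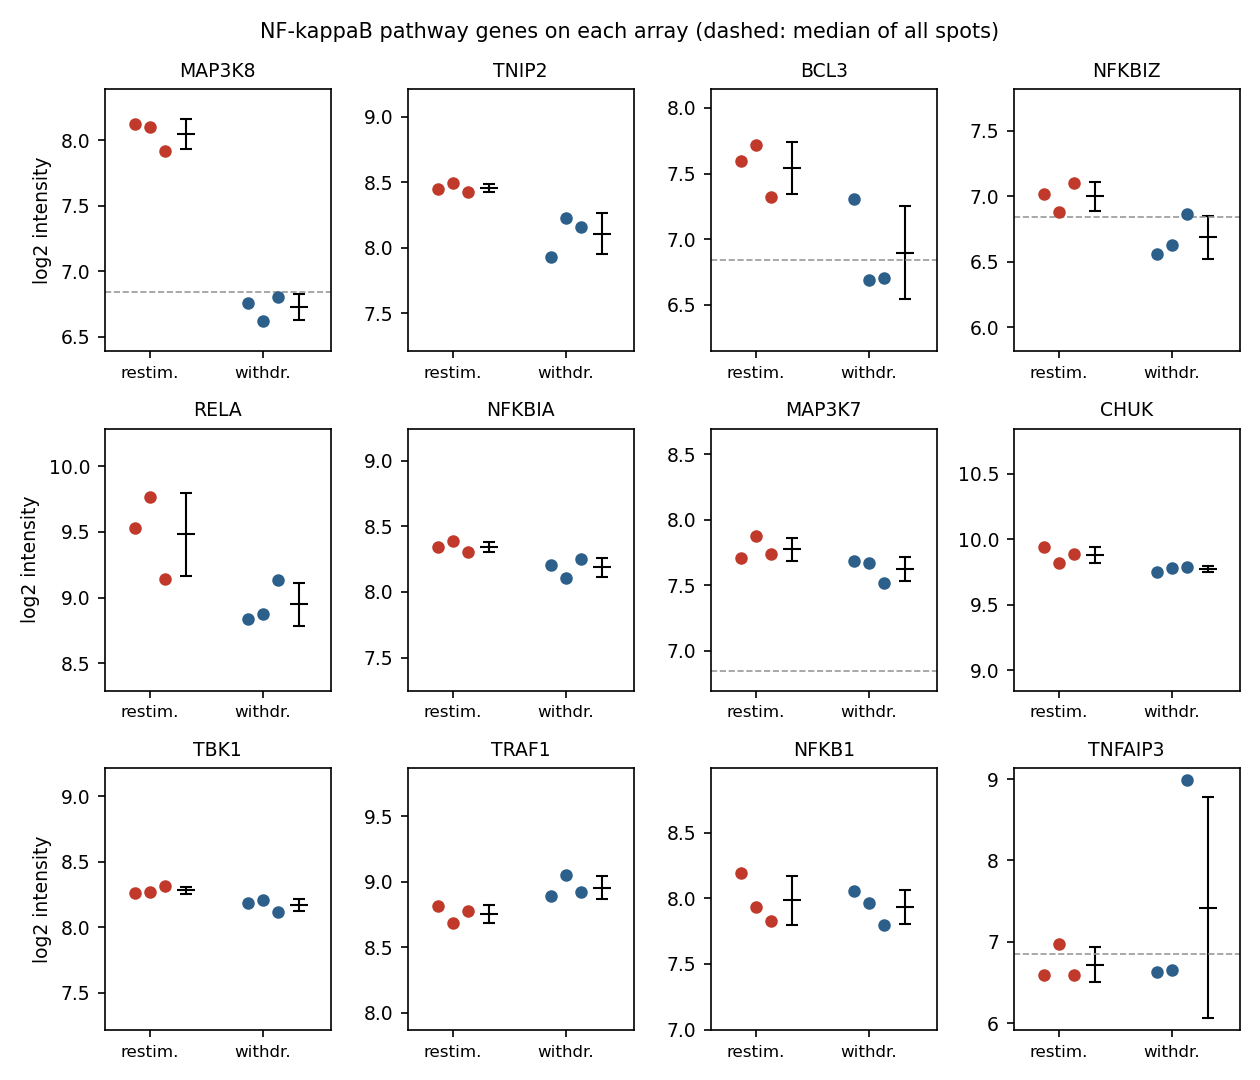
Log2 intensity on each of the 3 restimulated (red, left) and 3 withdrawn (blue, right) arrays for 12 NF-kappaB genes, with mean and SD beside the points; the dashed line is the median of all spots and the vertical axes differ in position. MAP3K8 sits between 7.92 and 8.13 on restimulated and between 6.62 and 6.80 on withdrawn arrays, while TNFAIP3 shows 1 withdrawn array at 8.99.

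The promoters of 4 genes are shown because they show the matches found beside MAP3K8, beside its partner TNIP2 and beside the IkappaB genes NFKBIA and BCL3. The windows are RefSeq promoters of GRCh38.p14, from 250 bases before to 50 bases after a start site. They were searched on both strands for the STAT site TTCNNNGAA and for the kappaB consensus, and capitals mark the bases of a match. Coordinates are chr10:30433934-30434233 (+) for the first and chr10:30434396-30434695 (+) for the second MAP3K8 window, chr4:2756287-2756586 (-) for TNIP2, chr14:35404700-35404999 (-) for NFKBIA and chr19:44748458-44748757 (+) for BCL3.
MAP3K8 first: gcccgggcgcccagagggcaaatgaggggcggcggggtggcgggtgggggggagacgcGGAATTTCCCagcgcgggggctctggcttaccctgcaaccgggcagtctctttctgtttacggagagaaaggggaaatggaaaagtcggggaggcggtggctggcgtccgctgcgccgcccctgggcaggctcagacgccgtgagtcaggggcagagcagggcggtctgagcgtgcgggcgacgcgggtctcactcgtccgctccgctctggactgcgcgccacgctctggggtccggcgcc
MAP3K8 second: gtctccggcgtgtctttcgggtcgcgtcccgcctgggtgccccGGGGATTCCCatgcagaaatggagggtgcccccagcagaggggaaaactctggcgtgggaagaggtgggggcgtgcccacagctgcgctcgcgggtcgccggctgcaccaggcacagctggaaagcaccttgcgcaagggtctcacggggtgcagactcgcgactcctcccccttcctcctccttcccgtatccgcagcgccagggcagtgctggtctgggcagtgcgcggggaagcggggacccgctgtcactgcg
TNIP2: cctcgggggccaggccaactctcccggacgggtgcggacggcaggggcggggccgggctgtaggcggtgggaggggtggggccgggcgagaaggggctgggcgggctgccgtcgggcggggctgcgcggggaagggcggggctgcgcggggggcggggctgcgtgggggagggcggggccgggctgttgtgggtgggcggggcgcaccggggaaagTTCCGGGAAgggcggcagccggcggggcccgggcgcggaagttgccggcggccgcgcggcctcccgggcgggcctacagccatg
NFKBIA: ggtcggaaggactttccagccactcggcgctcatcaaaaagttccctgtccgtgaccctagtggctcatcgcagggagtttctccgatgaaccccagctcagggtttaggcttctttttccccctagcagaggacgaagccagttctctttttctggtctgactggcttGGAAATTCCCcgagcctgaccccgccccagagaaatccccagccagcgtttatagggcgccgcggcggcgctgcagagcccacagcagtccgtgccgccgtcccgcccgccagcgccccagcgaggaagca
BCL3: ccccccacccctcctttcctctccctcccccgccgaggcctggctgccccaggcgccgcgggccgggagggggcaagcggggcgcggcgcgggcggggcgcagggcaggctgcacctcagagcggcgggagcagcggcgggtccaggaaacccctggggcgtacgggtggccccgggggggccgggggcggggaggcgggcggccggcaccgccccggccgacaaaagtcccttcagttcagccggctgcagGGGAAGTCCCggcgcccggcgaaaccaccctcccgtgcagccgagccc

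Both MAP3K8 windows held 1 kappaB match, at position -192 from the start in the first and at -207 in the second, and another window of MAP3K8 (chr10:30433771-30434070) covers the match of the first at -29. None of these held a STAT match. The TNIP2 window held the STAT letters TTCCGGGAA at -34 and no kappaB match. NFKBIA had a kappaB match at -81 and BCL3 one at 2 bases after the start. Promoter windows were in the table for 30 of the 35 genes. A kappaB match was present for 15 of these 30 (50%), against 13.25% of 27305 genes in the table. A STAT match was present for 2 of 30 (6.667%), RELA and TNIP2, against 9.376% of all. A gene counted if any of its windows held a match. By window, kappaB matches were in 37.74% of 53 windows of the set, against 11.27% of 35116 windows. STAT matches were in 3.774%, against 7.657%. The set was chosen to hold NF-kappaB target genes, so its kappaB share is only a description. IKBKB, NFKBIE, RELB, CD40 and RIPK2 were not analysed here. A match is a run of letters and does not show that a protein was bound there.

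The partners of MAP3K8 in its complex did not pass the test. NFKB1, which encodes p105, had 8.19, 7.93 and 7.83 on restimulated arrays, against 8.05, 7.96 and 7.80 on withdrawn arrays, so that the groups overlapped. Its difference was 0.05 ± 0.12 with a 95% confidence interval from -0.25 to 0.34. TNIP2, which encodes ABIN-2, had 8.44, 8.49 and 8.43 after restimulation, against 7.93, 8.23 and 8.16 after withdrawal. All restimulated arrays were above all withdrawn arrays, the difference was 0.35 ± 0.09 or 1.27-fold (95% confidence interval 1.09 to 1.49), and the limma adjusted p was 0.448. TNIP2 had the smallest p of the set after MAP3K8. Over 17 alternative settings its difference lay between 0.26 and 0.42 and its adjusted p between 0.176 and 0.877.

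Among the Rel subunits, none of the 4 tested genes passed and all 4 differences were above zero. RELA, the transactivating subunit of the canonical dimer, had 9.53, 9.77 and 9.14 on restimulated arrays, against 8.83, 8.87 and 9.14 on withdrawn arrays. The groups did not overlap, but the lowest restimulated and the highest withdrawn array both rounded to 9.14. The difference was 0.53 ± 0.18 (95% confidence interval 0.10 to 0.97, limma adjusted p = 0.516), and under a quantile normalization over the tested probes alone the groups overlapped. NFKB2, which encodes p100, had 9.73, 9.99 and 10.03 after restimulation, against 9.40, 9.79 and 9.72 after withdrawal, a difference of 0.28 ± 0.14 with overlapping groups. RELB, the partner of p52, differed by 0.05 ± 0.08. REL, the gene of c-Rel, was below the array median on every array, with means of 6.33 ± 0.10 after restimulation and 6.25 ± 0.03 after withdrawal (SD, n = 3 each), and was not tested.

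None of the 5 IkappaB genes passed the test. In 3 of them all restimulated arrays lay above all withdrawn arrays, which was so for 5.80% of all genes tested. Of these, BCL3 and NFKBIZ had passed the filter through the restimulated arrays. NFKBIA, the inhibitor that NF-kappaB itself induces in a feedback loop, had 8.34, 8.39 and 8.30 on restimulated arrays, against 8.21, 8.11 and 8.25 on withdrawn arrays. The groups were apart but close, with a difference of 0.16 ± 0.07 (limma adjusted p = 0.635) and a fold of at most 1.25 at the upper end of its 95% confidence interval. BCL3, a nuclear IkappaB protein that binds p50 and p52 dimers, had 7.59, 7.71 and 7.32 on restimulated arrays, against 7.30, 6.69 and 6.70 on withdrawn arrays. Its difference of 0.65 ± 0.20 was the second largest of the tested genes, or 1.56-fold (95% confidence interval 1.11 to 2.20, limma adjusted p = 0.498). The first withdrawn array was close to the lowest restimulated one, and the other two withdrawn arrays were below the median. NFKBIZ, which encodes the nuclear protein IkappaB-zeta, had 7.01, 6.88 and 7.10 after restimulation, against 6.56, 6.63 and 6.87 after withdrawal, again without overlap. The difference was 0.31 ± 0.11 (limma adjusted p = 0.527) at levels near the median, and the groups overlapped under the other quantile normalization. The cytoplasmic inhibitors NFKBIB (0.17 ± 0.11) and NFKBIE (-0.02 ± 0.09) had overlapping groups.

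The IkappaB kinase genes had small differences and no call. IKBKB, the catalytic subunit of the canonical branch, had 9.47, 9.22 and 9.44 on restimulated arrays, against 9.27, 9.58 and 9.21 on withdrawn arrays, with groups that overlapped fully and a difference of 0.02 ± 0.13. CHUK, the catalytic subunit IKK-alpha, had 9.94, 9.82 and 9.88 after restimulation, against 9.75, 9.78 and 9.79 after withdrawal. These groups did not overlap, although the difference was only 0.11 ± 0.06 (limma adjusted p = 0.742). IKBKG, the regulatory subunit NEMO, differed by -0.14 ± 0.08 and the related kinase IKBKE by -0.04 ± 0.09. TBK1, the kinase closest to IKBKE, had 8.26, 8.27 and 8.31 after restimulation, against 8.19, 8.21 and 8.12 after withdrawal, a difference of 0.11 ± 0.06 without overlap. A second probe of TBK1 differed by -0.27 (limma adjusted p = 0.605 over all probes), and the mean of both probes differed by -0.08. The direction of TBK1 thus depended on the probe.

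Kinases above the IkappaB kinases did not pass either, apart from MAP3K8. MAP3K7, which encodes TAK1, the activator of IkappaB kinase, had 7.71, 7.87 and 7.74 on restimulated arrays, against 7.68, 7.67 and 7.52 on withdrawn arrays. The lowest restimulated array was just above the highest withdrawn array, and the difference was 0.15 ± 0.08 (limma adjusted p = 0.727). MAP3K14, the gene of NIK, had means of 7.63 ± 0.10 after restimulation and 7.63 ± 0.06 after withdrawal (SD, n = 3 each) and a 95% confidence interval of the fold from 0.881 to 1.14. RIPK1, the scaffold kinase of the TNF receptor complex, differed by 0.07 ± 0.13. RIPK2, the kinase that signals for NOD receptors, had the most negative difference of the 30 tested genes, with 14.31, 14.52 and 14.23 on restimulated arrays, against 14.47, 14.75 and 14.83 on withdrawn arrays. Its groups overlapped, the difference was -0.33 ± 0.13 (limma adjusted p = 0.609), and a second probe differed by -0.09.

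Receptor, TRAF and cIAP genes gave no call among 7 tested genes. TRAF1, an adaptor of TNF receptors and a known NF-kappaB target, was the 1 gene of the set with all restimulated arrays below all withdrawn arrays, at 8.81, 8.68 and 8.77 after restimulation, against 8.89, 9.05 and 8.92 after withdrawal. The difference was -0.20 ± 0.07 (limma adjusted p = 0.595), and the groups stayed apart under both other normalizations of the arrays. CD40, a TNF family receptor of B cells, differed by -0.22 ± 0.13 at levels near the median. The regulators of NIK lay close to zero, with TRAF2 at -0.02 ± 0.09, TRAF3 at 0.03 ± 0.12 and BIRC2, the gene of cIAP1, at 0.11 ± 0.09. TRAF6, the adaptor of the IL-1 and Toll-like receptors, differed by 0.01 ± 0.10, and TANK, a binding partner of TRAFs and TBK1, by 0.05 ± 0.10. BIRC3, the gene of cIAP2 and a common NF-kappaB target, lay below the array median on every array, with means of 6.63 after restimulation and 6.61 after withdrawal, and was not tested.

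Among genes that limit the pathway, no call was made for the 3 that could be tested. TNFAIP3, the gene of the ubiquitin-editing enzyme A20 and a feedback target, was not tested, since its brighter probe was above the median on 2 arrays. It had 6.59, 6.97 and 6.60 on restimulated arrays, against 6.62, 6.65 and 8.99 on withdrawn arrays. A single withdrawn array, sample 3, stood far above the other 5, while a second probe lay below the median on all arrays, with means of 6.27 after restimulation and 6.34 after withdrawal. The same array had 73 named probes more than 1.5 log2 above every other array, beside 0 to 4 on each of the others, and the 8 spots around the TNFAIP3 spot differed there from the median of the other arrays by -0.08 to 1.45. Whether the spot or the sample gave the high value was not tested. TNIP1, which encodes the A20 partner ABIN-1, differed by 0.12 ± 0.12, and CYLD, a deubiquitinase that restrains the pathway, by -0.03 ± 0.08.

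The other target genes gave no call. CD83, an activation marker of B cells and dendritic cells, had means of 6.37 after restimulation and 6.32 after withdrawal, and TNFAIP2, induced by TNF in endothelial cells, had 6.56 after restimulation and 6.64 after withdrawal. Both lay below the array median on every array and were not tested, so that a low level could not be told from background. TNFAIP8, which is induced by TNF and NF-kappaB, differed by -0.09 ± 0.13 (limma adjusted p = 0.911). Of the canonical feedback targets in the set, then, NFKBIA was measured within narrow bounds, TNFAIP3 and BIRC3 were at or near background on nearly all arrays, and none passed the test.

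The 35 genes have 47 probes on the array, and 10 genes have several. Of 39 member probes tested over all probes, 1 was called, that of MAP3K8 (limma adjusted p = 0.00592). For 7 genes there were 9 further tested probes, of which 4 had the sign of the probe used and 5 the opposite sign.

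Further genes around the pathway were read from lists of other members. Of 45 further NF-kappaB target genes 30 were tested and 2 were called, both higher, where 0.236% of all genes tested were called higher and 0.00787% lower. JUNB, a subunit of AP-1, averaged 13.19 ± 0.08 after restimulation and 12.06 ± 0.08 after withdrawal (SD, n = 3 each, limma adjusted p = 0.00754). ICAM1, an adhesion molecule, averaged 11.06 ± 0.13 after restimulation and 9.77 ± 0.16 after withdrawal (limma adjusted p = 0.0182). Both are also known targets of other factors, among them STAT3, so a call does not name the factor. The median difference of the list was 0.04. As in the 35-gene set, 7 of the 30 tested genes had an unadjusted p under 0.05, against 7.99% of all genes tested. Next by size of the test statistic were GADD45B, a stress-induced regulator of MAP kinase signalling (1.27 ± 0.22), the plasma cell factor IRF4 (0.49 ± 0.11) and the interferon-related factor IRF1 (0.39 ± 0.10), none of which passed. GADD45B was called in 4 of 18 alternative settings, with differences of 1.06 to 1.42 over all of them, while the call of JUNB was lost with the mean over its probes (0.50, limma adjusted p = 0.169).

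Genes that lead to NF-kappaB gave no call. Of 29 receptors and adaptors 22 were tested, 5 differences lay above zero (22.7%) and the median was -0.07. The 3 with the largest test statistics were the TNF receptor TNFRSF1A (-0.42 ± 0.15) and the Toll-like receptors TLR1 (-0.20 ± 0.10) and TLR9 (-0.17 ± 0.08). Of 35 further regulators 32 were tested, with a median of -0.0039. In front were TRAF5 (0.19 ± 0.06), OPTN (-0.18 ± 0.08) and NKAP (-0.17 ± 0.09). The restimulated mean of TRAF5 was 1.08-fold above the array median, a point value without sampling error. TRAF5 was above that median on the 3 restimulated arrays only, and so passed the filter through them. An unadjusted p under 0.05 was found for 1 of the 22 receptors and adaptors and 1 of the 32 further regulators, against 7.99% of all genes tested.

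**Figure D3:**
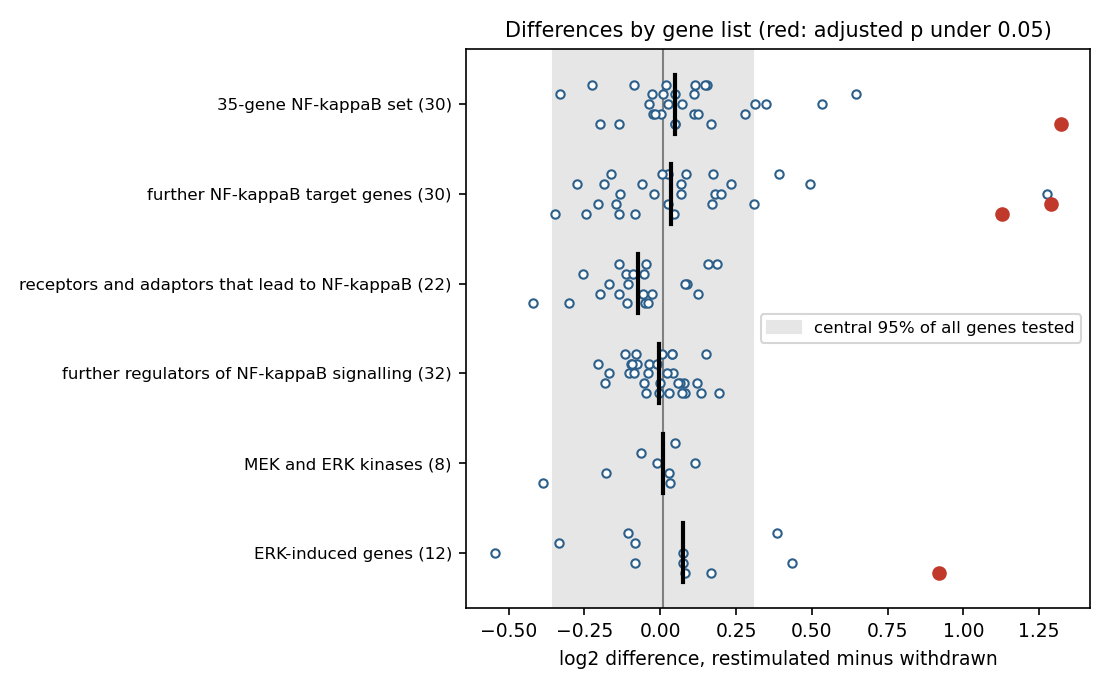
Differences (restimulated minus withdrawn, log2) of the tested genes in the 35-gene NF-kappaB set and in 5 further lists; each point is a gene, black bars are medians, red points have an adjusted p under 0.05 and the grey band holds the central 95% of all genes tested. Outside the band lie 5 of the 30 tested genes in the set, 6 of 30 further target genes and 4 of 12 ERK-induced genes. So do 1 of 22 receptors and adaptors, 1 of 8 MEK and ERK kinase genes and none of the 32 further regulators. Of the 5 in the set, MAP3K8, BCL3 and NFKBIZ had passed the filter through the restimulated group.

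The branch below MAP3K8 was read at its kinases and at genes that ERK induces. None of 8 MEK and ERK kinase genes passed. An unadjusted p under 0.05 was found for 1 of the 8, against 7.99% of all genes tested. MAP2K1, the gene of MEK1, differed by 0.12 ± 0.09, the scaffold KSR1 by -0.18 ± 0.10, and MAP2K4, a kinase of the JNK branch, by -0.39 ± 0.11 (limma adjusted p = 0.460). These are RNA levels, and kinase activity was not measured. Of 12 tested ERK-induced genes 1 was called, where 0.236% of all genes tested were called higher. In this list 4 of the 12 had an unadjusted p under 0.05, against 7.99% of all genes tested. DUSP5, a nuclear phosphatase of ERK, averaged 11.02 ± 0.14 after restimulation and 10.10 ± 0.09 after withdrawal (SD, n = 3 each), a difference of 0.92 ± 0.10 (limma adjusted p = 0.0403). The others lay on both sides of zero without passing. The early factor EGR1 was 0.43 ± 0.07 higher, and its restimulated mean was 1.28-fold above the array median, a point value without sampling error. Its probe was above that median on the 3 restimulated arrays only, and so passed the filter through them. The ERK phosphatase DUSP6 and the feedback inhibitor SPRY4 differed by -0.55 ± 0.09 and -0.33 ± 0.08. DUSP6 was called in 1 of 17 alternatives, that with an intensity trend and robust prior (limma adjusted p = 0.0381).

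**Figure D4:**
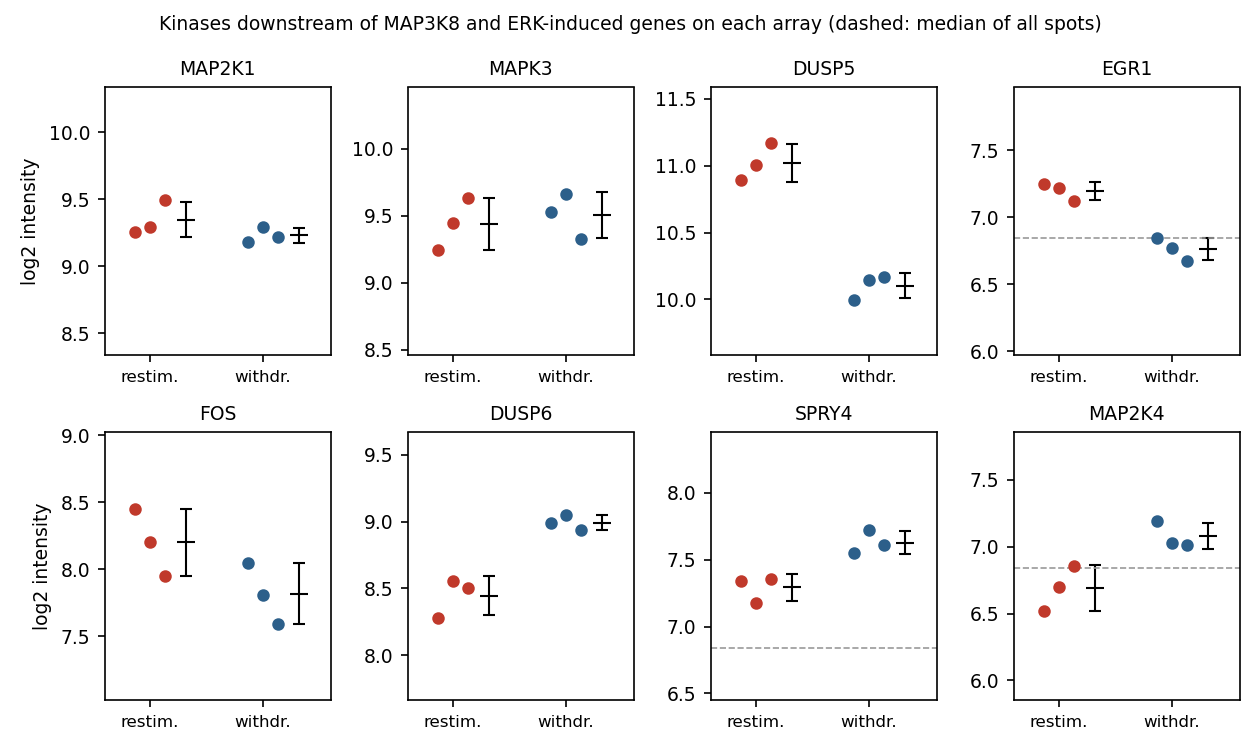
Log2 intensity on each restimulated (red, left) and withdrawn (blue, right) array for 8 genes of the branch below MAP3K8, with mean and SD beside the points. MAP2K1 and MAPK3 overlap between groups, DUSP5 is higher on all restimulated arrays (mean 11.02 restimulated, 10.10 withdrawn), and DUSP6 is lower on all of them (mean 8.45 restimulated, 8.99 withdrawn).

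With 1 sample left out the differences of the called list genes stayed close to those given, at 1.08 to 1.17 for JUNB, 1.21 to 1.38 for ICAM1 and 0.85 to 0.99 for DUSP5, while fewer calls were made among all genes (6 to 15, against 31). Of the 3 calls in the lists, 0 were left without restimulated sample 1, 2 or 3 or withdrawn sample 1, 1 without withdrawn sample 3 and 2 without withdrawn sample 2. Marker lists were read beside them. All 9 plasma cell markers on the array were above the median on all arrays. Their summed linear intensity was 60975 to 63130 on restimulated arrays and 46881 to 49250 on withdrawn arrays. This sum weights bright genes such as XBP1 (means 14.34 restimulated, 13.63 withdrawn). Of the 9 differences 5 lay above zero, with PRDM1 called higher (1.29 ± 0.07). The other 4 lay below zero: SDC1 (-0.16), CD38 (-0.08), TNFRSF17 (-0.05) and JCHAIN (-0.01). The sum of the B cell list was 67829 to 67967 on restimulated and 67914 to 68198 on withdrawn arrays, that of the T and NK cell list 67677 to 67763 on restimulated and 68064 to 68319 on withdrawn arrays, and that of the fibroblast list 66155 to 66214 on restimulated and 66164 to 66221 on withdrawn arrays. Each of these lists held 1 gene at the ceiling on all arrays, CD79A, CD4 and THY1 in that order, which made up most of the sum. The identity of these saturated probes rests on the inferred match of probes to rows and was not checked otherwise. Of the other fibroblast markers 4 were above the median on no array and 3 on 1 array. With the saturated probes included, 5 of 9 B cell markers and 5 of 10 T and NK cell markers were above it on all arrays. Among them were CD79B (means 10.31 restimulated, 10.36 withdrawn) and CD3E (9.22 restimulated, 9.40 withdrawn). In each of these lists 2 markers were above the median on no array, CD3D among them, and the B cell marker MS4A1 was above it on 1. Of 10 myeloid markers 7 were above the median on no array (summed 1588 to 1782 on restimulated and 1675 to 2351 on withdrawn arrays), and no gene of these 4 lists was called. In RNA from a whole culture, fewer cells of a type and less RNA per cell cannot be told apart, and the part of the marker levels in the differences was not tested.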

How the data were processed

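Total RNA of INA-6 cells was hybridized as Cy3-labelled material to 6 single-color Agilent custom arrays, 3 restimulated and 3 withdrawn. Per the labels and the study's methods the authors quantile-normalized the arrays, and they deposited log2 intensities, 1 per spot (243504 spots). R 2.9.0 and limma appear in the submitters' processing notes. Background treatment was not given in the sources used here. No further normalization was applied, and the sorted columns differed by at most 0.199. After quantile normalization a difference is relative to the bulk of spots. At the ceiling of 16 (1715 spots on all arrays) differences are understated. No member lay at that ceiling.

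Probe numbers of the platform table (27216 named probes) were matched to rows of the value table by their position on the 912 by 267 spot grid. This match is an inference from the data. Levels of probes of the same gene correlated with r = 0.431 over 7157 pairs under it, and with r = 0.0190 under equal numbers. Symbols were updated through a RefSeq gene table (GRCh38.p14, names only): accessions matched 23830 probes, current symbols 2498 and older symbols 854, while 34 stayed as they were.

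The study's methods filter on negative control spots. These could not be told apart by name, so a probe was tested if brighter than the array's spot median in at least 3 of 6 samples. A linear model with treatment as the only term was fitted in limma 3.58.1 (R 4.3.3), and two-sided moderated p-values were adjusted by Benjamini-Hochberg over 12703 genes at a threshold of 0.05. For a probe not above the median on any array of a group, the mean of the other group was set against the array median. This gives a point value without sampling error. The scripts were tested on simulated data. Promoters were counted in RefSeq windows in Python 3.11.15. Values on every array are given for genes past the threshold, for genes whose groups do not overlap, for MAP3K8, NFKB1, TNIP2, IKBKB and MAP3K7, and for NFKBIA and TNFAIP3. NFKB2 and RIPK2 were added after their values were seen. From each further list the genes past the threshold and the 3 with the largest absolute moderated statistic are named, and FOS and MAPK3 in a plot were also added. The members and lists were chosen with earlier results of these data known. The alternatives were other filters, a mean over probes, adjustment over probes, an intensity trend with a robust prior, array weights, 2 other scalings, ceiling spots left out, the replicate number as a block, platform symbols and each sample left out.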

Additional observations from a re-analysis of the deposited data

How the results depend on the processing

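The number of genes called was 31. It was 74 with an added interquartile range filter, 61 with adjustment over all probes, 78 with an intensity trend and robust prior, 58 with ceiling spots left out, 54 with arrays centred on the median of named spots and 1 with the replicate block. It was between 6 and 15 with 1 sample left out. Of the NF-kappaB genes 1 was called. This was 0 with the filter on all 6 arrays, where MAP3K8 was not tested, 0 with the replicate block and between 0 and 1 with 1 sample left out. The genes called in the further lists were 3, but 5 with the trend and robust prior, 0 with the replicate block and between 0 and 2 with 1 sample left out. They were 2 with the mean over probes, where JUNB was lost, and GADD45B was called in 4 alternatives (interquartile range filter, trend and robust prior, ceiling spots left out, arrays centred). The labels do not say whether samples of the same number belong together. Deviations of same-numbered samples from their group means correlated with r = 0.05, -0.02 and -0.28. With 3 arrays per group these correlations cannot decide whether the samples were paired. No sample correlated best with the one of its own number.

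MAP3K8 stayed higher by 1.27 to 1.39 in all 17 alternatives that tested it and was called in 13, with adjusted p between 5.90e-05 and 0.171. Of 508 values of members under an alternative, 503 either stayed called in the same direction or were uncalled and moved less than the spread between samples. In 4 values MAP3K8 kept its direction but lost the call, and TBK1 moved to -0.08 with the mean over probes. The sign differed from the main result in 38 of the 508, all uncalled. Counts without overlap under the 2 other scalings were added after seeing the data: 10 members (arrays centred, 7.63% of all genes) and 7 members (quantile over tested probes, 5.56%) were higher without overlap, NFKB2 being added in the first and NFKBIZ and RELA lost in the second. TRAF1 was the 1 member lower without overlap in both (5.42% and 6.74% of all genes). Signals near background limit REL, BIRC3, CD83, TNFAIP2 and TNFAIP3.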
